A study of Homo sapiens with 6 samples.

Results

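The transcripts of 7 ribosomal protein genes, RPLP0, RPL3, RPL4, RPL8, RPS2, RPS3 and RPS6, were examined for eCLIP read clusters in FLAG-Angel1 cells and in the control. A cluster belonged to a gene when the gene span on GRCh37 and the cluster shared at least 1 nt and the strand, whatever the enrichment. By this rule, 241 of the 205520 clusters listed for the 3 IPs lay in the 7 genes, namely 120 of 102843 in FLAG-Angel1 replicate 1, 94 of 96960 in FLAG-Angel1 replicate 2 and 27 of 5717 in the control. In eCLIP, protein is cross-linked to RNA by UV light and the RNA fragments recovered with the protein (the IP) are compared with a size-matched input of the same lysate. All 6 libraries came from HEK293 cells (human embryonic kidney) of the Flp-In T-REx type, which carry a site for a tetracycline-inducible construct. The cells were grown in DMEM with 10% FBS, received tetracycline at 5 ng/mL for the last 24 h and were irradiated with 400 mJ/cm2 at 254 nm. FLAG-tagged Angel1, a relative of the CCR4 deadenylases, was precipitated with the M2 FLAG antibody in 2 replicates, and the FLAG-only control, 1 IP with its input, used cells that the study describes as having no FLAG fusion protein. The genotype label of the control libraries nevertheless also reads FLAG-Angel1. The study further describes a sample without UV exposure, and the labels mark none as that sample. The question behind these IPs was which transcripts, and which regions of them, are found with Angel1.

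Ribosomal protein mRNAs are among the most abundant and most actively translated mRNAs of growing cells. Most of them begin with a 5′ terminal oligopyrimidine tract, an uninterrupted run of C and U at the cap, through which mTOR signalling controls their translation. Several of the genes carry small nucleolar RNAs (snoRNAs), the guides of ribosomal RNA modification, within their introns. Among the proteins of the large subunit, RPLP0 forms the base of the stalk that recruits translation factors, RPL3 and RPL8 lie close to the peptidyl transferase centre, and RPL4 lines part of the tunnel through which the nascent peptide leaves. In the small subunit, RPS2 and RPS3 lie at the mRNA entry channel, and RPS6 is the subunit phosphorylated by kinases downstream of mTOR.

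The starts of transcription are shown because the oligopyrimidine tract defines this class of mRNA and because clusters of RPS3 reached within a few nucleotides of the start of its span. RefSeq sequence on GRCh38.p14 was matched for 5 of the 7 genes. Each line runs 5′ to 3′ on the strand of the gene, from 10 nt before the RefSeq start to 20 nt after it, with the longest run of letters that are C or T in capitals.
RPLP0, chr12:120201092-120201121, minus strand: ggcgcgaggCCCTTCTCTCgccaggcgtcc
RPL3, chr22:39319604-39319633, minus strand: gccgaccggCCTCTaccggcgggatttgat
RPL4, chr15:66504836-66504865, minus strand: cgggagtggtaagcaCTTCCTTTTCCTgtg
RPS3, chr11:75399508-75399537, plus strand: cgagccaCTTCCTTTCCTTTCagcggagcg
RPS6, chr9:19380217-19380246, minus strand: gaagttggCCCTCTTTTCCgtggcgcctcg
The run covered the first transcribed nucleotide in RPLP0, RPL3, RPS3 and RPS6, whereas in RPL4 it began at nucleotide 6 after the RefSeq start. It was longest in RPS3 (14 nt), followed by RPL4 (12 nt), RPS6 (11 nt), RPLP0 (10 nt) and RPL3 (5 nt). A run of at least 8 was found in 4 of the 5 windows and in 12.7% of the 35116 windows of the same table. No cluster was placed on these windows, which are of another build than the clusters.

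Each cluster carried the authors' log2 fold of IP over input and a P for enrichment, and was called enriched when its log2 fold was above 0 and its P passed the threshold of 0.05. Depletion was not scored, as P was 1 for every cluster that did not exceed a log2 fold of 0. The lists give no reads. The ratio of IP to input size was inferred from the spacing of the log2 folds. Library sizes were then inferred from the P of clusters with 1 input read, taken as that of Fisher's exact test. The IPs were thus inferred to hold about 212000 reads in the control and 3345000 and 2548000 in the replicates. For the inputs, 3280000, 711000 and 2817000 reads were inferred, in the same order. Most clusters then resolved to whole numbers of IP and input reads, from which exact 95% intervals of the log2 fold were computed. These intervals cover counting error only, and an input of 1 read may be a minimum set by the pipeline. With 1 control library, and with clusters of a gene sharing a transcript, no P was calculated between libraries.

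FLAG-Angel1 clusters in the ribosomal protein genes were enriched over input more often than clusters elsewhere in the same library. In replicate 1, 84 of 120 were enriched (70.0%, Wilson 95% interval 61.3% to 77.5%), where 11.7% of all clusters of that library were. In replicate 2, 76 of 94 were enriched (80.9%, interval 71.7% to 87.5%), where 40.7% were. Over all clusters the control had the opposite order, with 17 of its 27 clusters in the genes enriched (63.0%, interval 44.2% to 78.5%) beside 91.8% of all control clusters. At the threshold of 0.001, 62 clusters of the genes passed in replicate 1 (background 4.22%), 62 in replicate 2 (background 17.0%) and 6 in the control (background 64.5%).

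The enrichment itself was of moderate size. The median log2 fold of the clusters in the genes was 1.56 in replicate 1 beside 0.57 for all other clusters, 2.07 in replicate 2 beside 1.73, and 1.74 in the control beside 5.28. Gene medians lay above the median of the other clusters for 7 of the 7 genes in replicate 1, for 4 of 7 in replicate 2 and for 0 of the 6 genes with a control cluster. Large folds were few. A log2 fold of at least 3 together with the threshold of 0.05 was reached by 2 of the 120 clusters in replicate 1 (1.67%, background 1.18%), by 6 of the 94 in replicate 2 (6.38%, background 10.2%) and by 0 of the 27 in the control (background 78.3%). The clusters of the genes were also deeper than others. Among clusters resolved to reads and above 0, the median in replicate 1 was 184 IP and 14 input reads beside 28 and 2 for the other clusters, in replicate 2 it was 62 and 15 beside 8 and 2, and in the control 6 and 22.5 beside 4 and 2. At a log2 fold between 1 and 2, 35 of 48 clusters of the genes were enriched in replicate 1 (72.9%) beside 21.1% of the others, 21 of 21 in replicate 2 beside 25.4%, and 7 of 11 in the control (63.6%) beside 41.0%. Depth was not matched by this step, since the median IP reads of these clusters were 122.5 beside 23 in replicate 1, 48 beside 7 in replicate 2 and 5 beside 4 in the control. With at least 10 input reads and a log2 fold above 0, the shares came closer, at 91.8% beside 69.2% in replicate 1, 96.5% beside 83.9% in replicate 2 and 76.2% beside 63.8% in the control, and the median IP reads were still 350 beside 176, 81 beside 47 and 6 beside 5. Within both selections the control share of the genes was the higher, as in the replicates and opposite to its order over all clusters. Its Wilson intervals, 35.4% to 84.8% and 54.9% to 89.4%, held the shares of the others, so that the control counts did not separate the sets.

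**Figure D1:**
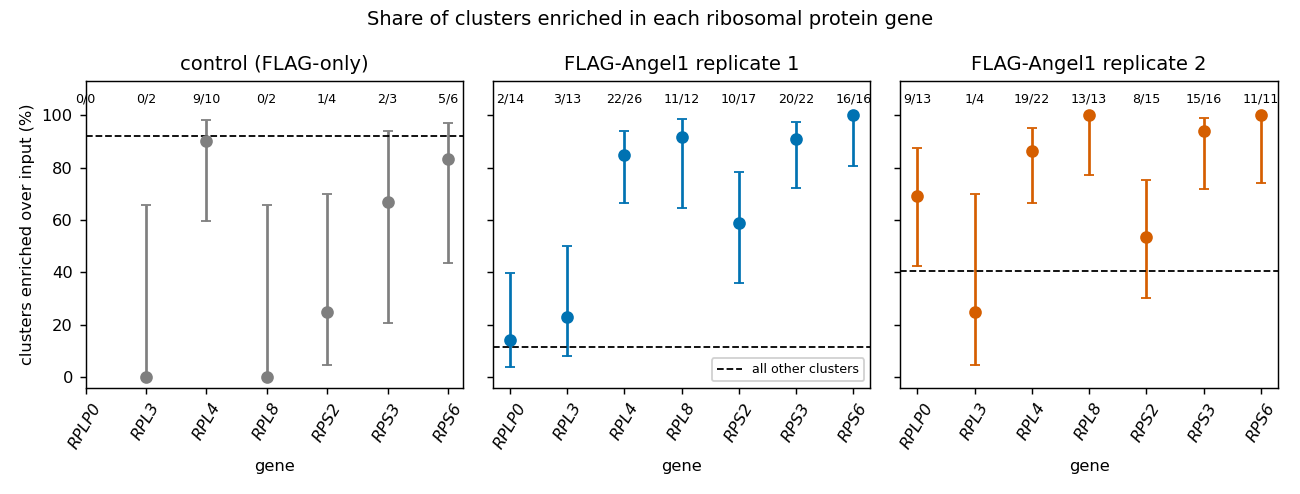
Percentage of clusters enriched over input (y axis, threshold of 0.05 and log2 fold above 0) in each ribosomal protein gene (x axis) for the control IP and the FLAG-Angel1 IPs. Points are shares, bars are Wilson 95% intervals, numbers above give enriched over listed clusters, and the dashed line is the share among all other clusters. In both FLAG-Angel1 IPs, RPL4, RPL8, RPS3 and RPS6 lie above 80%, RPL3 has 3 of 13 and 1 of 4 enriched, and RPLP0 lies at 14.3% in replicate 1 and 69.2% in replicate 2.

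The 7 genes were not alike. RPS6 stood first in both replicates with a median log2 fold of 2.23 and 2.95. In replicate 1 the order continued with RPS3 (1.73), RPL4 (1.55), RPL8 (1.44), RPS2 (1.37), RPL3 (1.35) and RPLP0 (1.03), and in replicate 2 with RPL4 (2.31), RPL8 (2.24), RPS3 (2.10), RPLP0 (1.73), RPS2 (0.76) and RPL3 (-0.71). The interquartile ranges of neighbours in these orders overlapped in every case, so that the order is given as a description. The ends of the order in replicate 1 did not overlap, with an interquartile range from 2.08 to 2.42 in RPS6 and from 0.71 to 1.30 in RPLP0. RPL4, RPL8, RPS3 and RPS6 together held 69 of the 84 enriched and 76 of the 120 listed clusters of replicate 1, 58 of 76 and 62 of 94 in replicate 2, and 16 of 17 and 21 of 27 in the control.

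**Figure D2:**
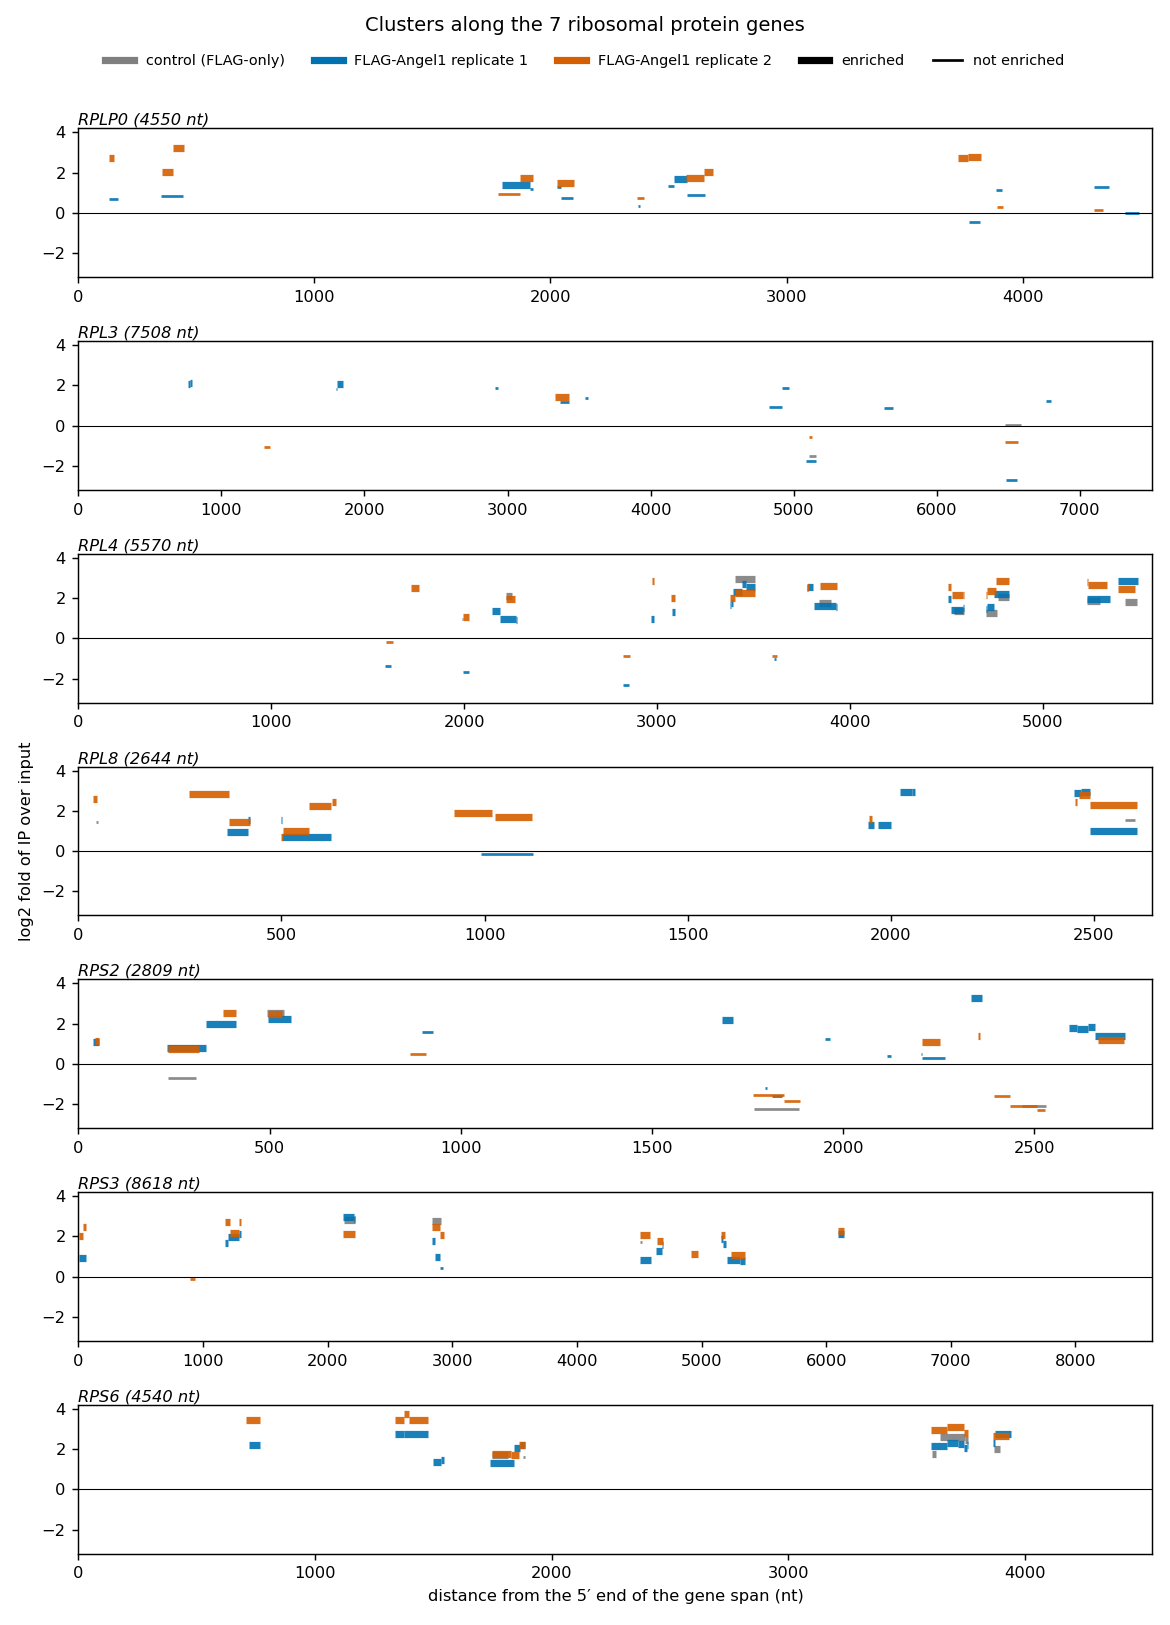
Clusters along the 7 ribosomal protein genes, each panel running from the 5′ end of the gene span (x axis, nt) with the log2 fold of IP over input on the y axis. Each horizontal bar is 1 cluster at its position and width, grey for the control, blue for FLAG-Angel1 replicate 1 and orange for replicate 2, thick where enriched. The FLAG-Angel1 clusters of RPS6 all lie above 0 and are all enriched, RPL4 holds enriched clusters of all 3 IPs towards its 3′ end, and RPL3 and RPS2 hold clusters below 0.

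RPL4 had the most clusters. The gene (chromosome 15 from 66791652 to 66797221, minus strand) held 26 clusters in replicate 1, of which 22 were enriched, 22 in replicate 2, of which 19 were enriched, and 10 in the control, of which 9 were enriched. The deepest cluster of replicate 1 in any of the genes ran from nucleotide 5232 to 5349 of its span, near the 3′ end, with 2350 IP over 129 input reads and a log2 fold of 1.95 (95% interval 1.70 to 2.22). In replicate 2, the −log10 P reached its maximum of 400 both between nucleotides 5231 and 5349 and, at a log2 fold of 2.84, from 4757 to 4828. The control cluster with the largest −log10 P in RPL4 (6.35) lay from nucleotide 5231 to 5299, over the strongest cluster of replicate 1, and had a log2 fold of 1.86 (interval 1.03 to 2.61) from 18 IP and 77 input reads. The control value thus lay inside the interval of replicate 1. The wider cluster of replicate 2 there, from 5235 to 5335, stood at 2.64, just above the upper end of the control interval, and had no interval of its own. The pairs with the largest lower log2 fold lay from nucleotide 3779 to 3808, with 2.55 (interval 1.94 to 3.23) in the wider cluster of replicate 1 and 2.57 (interval 1.71 to 3.55) in replicate 2, and no control cluster was listed there. Clusters of RPL4 were also found below 0. Those from nucleotide 1592 to 1630 stood at -1.38 in replicate 1 and -0.16 in replicate 2. From 2827 to 2861 the values were -2.34 and -0.88, and from 3597 to 3623 they were -1.04 and -0.86. These 3 stretches were below 0 in both replicates and had no control cluster, and none of the clusters of RPL4 in any IP began before nucleotide 1592.

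RPL8 was enriched with little counterpart in the control. Of its clusters (chromosome 8 from 146015154 to 146017797, minus strand), 11 of 12 were enriched in replicate 1, 13 of 13 in replicate 2 and 0 of 2 in the control. From nucleotide 2468 to 2491, close to the 3′ end, the log2 fold was 2.94 in replicate 1 (216 IP over 6 input reads, interval 1.79 to 4.40), and the cluster of replicate 2 from 2463 to 2491 stood at 2.78 (62 over 10 reads, interval 1.80 to 3.91). The cluster with the largest −log10 P of replicate 2 (22.8) lay near the 5′ end, from nucleotide 273 to 370, at 2.85 (interval 2.19 to 3.56). The stretch from 924 to 1119 separated the replicates, with a log2 fold of -0.16 in replicate 1 and at most 1.90 in replicate 2. The control clusters stood at 1.45 and 1.56, the latter with 4 IP over 21 input reads and an interval from -0.44 to 3.13, so that the small control IP did not separate them from 0 or from the FLAG-Angel1 values.

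RPLP0 was the gene in which the replicates differed most in their calls. Its span (chromosome 12 from 120634489 to 120639038, minus strand) held 14 clusters in replicate 1, of which 2 were enriched (14.3%, interval 4.01% to 39.9%), a share near the 11.7% of that library. In replicate 2, 9 of 13 were enriched (69.2%, interval 42.4% to 87.3%), beside 40.7% of all clusters of that library. The control list had no cluster in the gene. Few reads lay behind these calls, with a median of 44 IP and 3 input reads in replicate 1 and 17 and 8 in replicate 2. The cluster with the largest −log10 P of replicate 2, from nucleotide 3771 to 3824, had a log2 fold of 2.79 (25 over 4 reads, interval 1.25 to 4.77), whereas the cluster of replicate 1 over it stood at -0.47. From 349 to 447 the highest values were 0.82 in replicate 1 (interval -0.89 to 3.20) and 3.23 in replicate 2 (interval 1.16 to 6.39), which overlapped. The pair enriched in both lay from nucleotide 2523 to 2576 in replicate 1, at 1.67 (interval 0.03 to 4.0), and from 2575 to 2648 in replicate 2, at 1.73 (interval 0.53 to 3.09). The strongest cluster of replicate 1, from 1796 to 1911, reached a −log10 P of 1.79 and a log2 fold of 1.39 (interval 0.28 to 2.74). At the threshold of 0.001, RPLP0 kept 0 clusters in replicate 1 and 2 in replicate 2.

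RPL3 had few enriched clusters. Of those in its span (chromosome 22 from 39708887 to 39716394, minus strand), 3 of 13 were enriched in replicate 1, 1 of 4 in replicate 2 and 0 of 2 in the control. Over all clusters, 11.7%, 40.7% and 91.8% were enriched. The Wilson intervals of RPL3 in the replicates, 8.18% to 50.3% and 4.56% to 69.9%, held the shares of their libraries. The enriched clusters of replicate 1 stood at 2.05 to 2.12 on the log2 scale and each rested on 2 input reads, the strongest with 41 IP reads and an interval from 0.18 to 5.22. The enriched cluster of replicate 2, from nucleotide 3334 to 3431, stood at 1.42 (17 over 7 reads, interval 0.08 to 2.94), and the cluster of replicate 1 over it, at 1.16, was not enriched. No cluster of RPL3 passed the threshold of 0.001 in any IP. The gene also held stretches below 0 in both replicates, from nucleotide 5086 to 5157 at -1.75 and -0.59 (control -1.50) and from 6476 to 6587 at -2.73 and -0.82 (control 0.04).

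RPS2 held both enriched clusters and clusters well below 0. In its span (chromosome 16 from 2012053 to 2014861, minus strand), 10 of 17 were enriched in replicate 1, 8 of 15 in replicate 2 and 1 of 4 in the control, while 2, 6 and 3 lay below 0. Over all clusters, 31.2% of replicate 1, 2.59% of replicate 2 and 2.75% of the control were below 0, and 11.7%, 40.7% and 91.8% were enriched. The enriched share of RPS2 in replicate 1 was 58.8% (Wilson interval 36.0% to 78.4%). In replicate 2 it was 53.3%, with an interval from 30.1% to 75.2% that held the share of all clusters. The cluster of replicate 1 with the largest −log10 P, from nucleotide 334 to 412, stood at 1.97 (interval 1.25 to 2.80), the cluster of replicate 2 from 378 to 412 stood at 2.52 (interval 1.53 to 3.67), and no control cluster lay there. From 496 to 555 replicate 1 stood at 2.22 (interval 1.39 to 3.19), replicate 2 at 2.47 (interval 1.52 to 3.55) and the control, with 3 IP over 8 input reads from 495 to 538, at 2.54 (interval -0.01 to 4.60). All 3 IPs were thus close in value at this position, although the control rested on 3 IP reads. The stretch from 1766 to 1886 was below 0 throughout, with the control at -2.24 and the replicates at -1.61 and -1.56. From 2437 to 2529, replicate 2 stood at -2.09 and the control at -2.07, and replicate 1 had no cluster.

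RPS3 was the only gene on the plus strand. Of its clusters (chromosome 11 from 75110562 to 75119179), 20 of 22 were enriched in replicate 1, 15 of 16 in replicate 2 and 2 of 3 in the control. Clusters began at nucleotide 2 of the span in replicate 1 and at nucleotide 5 in replicate 2, the closest approach to a 5′ end among the genes, and the stretch from 2 to 61 stood at 0.94 in replicate 1 and at most 2.47 in replicate 2. The last 2475 nt of the span had no cluster in any IP. From nucleotide 6099 to 6143, the log2 fold was 2.13 in replicate 1 (interval 1.43 to 2.93), and it was 2.27 from 6097 to 6141 in replicate 2 (interval 1.41 to 3.22), with no control cluster. From 1286 to 1307 the values were 2.12 (interval 0.96 to 3.60) and, from 1291, 2.73 (interval 1.35 to 4.45). The control cluster with the largest −log10 P in RPS3, from 2135 to 2217, stood at 2.83 (11 IP over 24 input reads, interval 1.65 to 3.91), beside 2.99 in replicate 1 and 2.12 in replicate 2. At this position the control lay between the replicates.

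RPS6 was enriched at every cluster of both FLAG-Angel1 IPs. All 16 clusters of replicate 1 and all 11 of replicate 2 in its span (chromosome 9 from 19375713 to 19380252, minus strand) passed the threshold of 0.05, and all of them also passed that of 0.001, while 5 of 6 passed 0.05 in the control and 1 passed 0.001. The highest pair lay from nucleotide 1337 to 1339 in replicate 1, at 3.16 (294 over 7 reads, interval 2.10 to 4.49), and from 1337 to 1377 in replicate 2, at 3.47 (191 over 19 reads, interval 2.79 to 4.24), and no control cluster was listed there. The clusters with the largest −log10 P lay near nucleotide 3670. They stood at 2.17 in replicate 1 (nucleotides 3604 to 3670, 955 over 45 reads, interval 1.74 to 2.64), at 3.12 in replicate 2 (3674 to 3745, 339 over 43 reads, interval 2.66 to 3.62) and at 2.63 in the control (3642 to 3746, 24 over 60 reads, interval 1.88 to 3.34). With a −log10 P of 16.4, this was the strongest control cluster of the 7 genes, and its value lay between those of the replicates. No cluster of RPS6 began before nucleotide 710 of its span, and none lay in the last 600 nt.

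**Figure D3:**
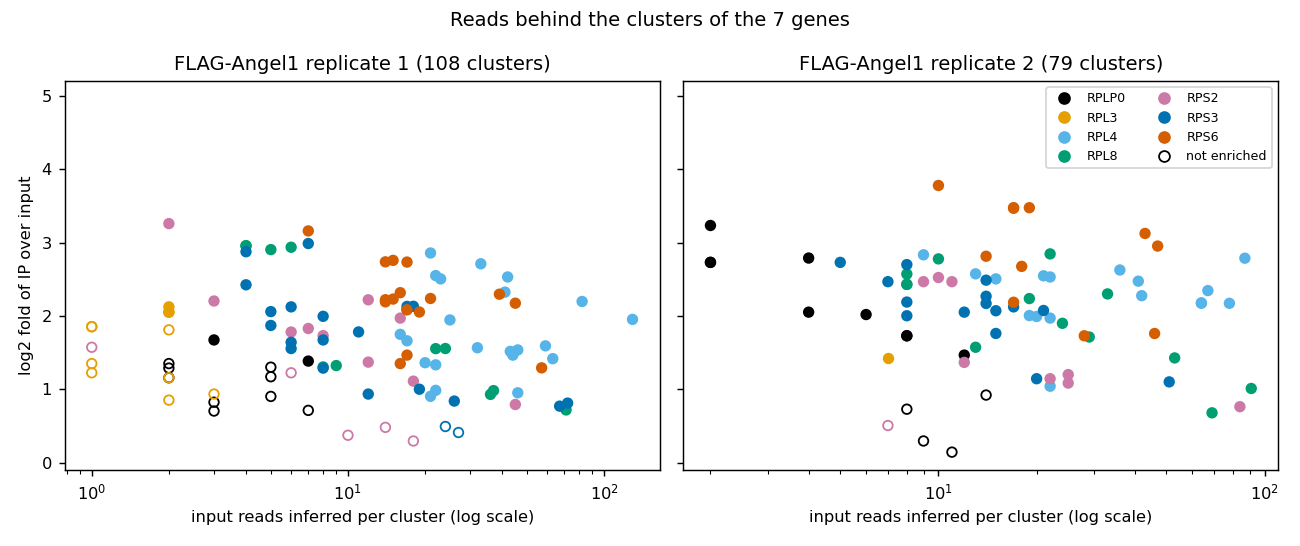
Log2 fold of IP over input (y axis) against inferred input reads (x axis, log scale) for the clusters of the 7 genes that had a log2 fold above 0 and resolved to reads, 108 in FLAG-Angel1 replicate 1 and 79 in replicate 2. Filled points are enriched and open points are not, with a colour for each gene. Clusters of RPL3 and RPLP0 in replicate 1 lie at 1 to 7 input reads and most are open, whereas clusters of RPL4 reach 129 input reads.

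Peaks reproducible between the replicates were taken as overlapping clusters, 1 or more of each replicate, that all had a log2 fold above 0 and passed the threshold of 0.001, merged into 1 peak. The 7 genes held 28 of the 2243 reproducible peaks, with 11 in RPL4, 5 in RPS3, 5 in RPS6, 4 in RPL8, 3 in RPS2 and 0 in RPLP0 and RPL3. They took in 53 of the 120 clusters of replicate 1, where 3.20% of all clusters of that library lay in a reproducible peak, and 46 of the 94 of replicate 2, where 3.54% did. Each peak took, per replicate, the largest log2 fold of its clusters, and peaks were ranked by the lower value of the replicates. The highest of the 28 was the RPS6 peak from nucleotide 1337 to 1479, at 3.16, which ranked 67 among all 2243. That value was of a cluster 3 nt wide in replicate 1, and the other clusters of replicate 1 in this peak stood at 2.74 and 2.73. The RPL8 peak from 2451 to 2491 followed at 2.78 (rank 235) and the RPS6 peak from 3867 to 3940 at 2.68 (rank 314).

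The log2 fold of the genes was related between the replicates. Each cluster of replicate 1 was paired with the cluster of replicate 2 of largest overlap, giving 95 pairs with a Pearson correlation of 0.756 and a Spearman correlation of 0.657, beside 0.224 and 0.178 over 54100 pairs of all genes. The pairs share transcripts and, where clusters abut, reads, and are not independent. Since the clusters of the genes were deeper than others and no correlation was made at matched depth, the sets are not alike. When only enriched clusters were paired, the genes gave 70 pairs with a Pearson correlation of 0.546. Of the 95 pairs, 85 were above 0 in both, 7 were below 0 in both and 69 were enriched in both. Over the 54100 pairs of all genes these counts were 42771, 445 and 9125. Replicate 2 was the higher in 72 pairs (75.8%), a share near and below the 81.3% over all genes. The median of the differences was 0.47 and their SD 0.81, beside 1.10 and 1.25 over all genes. Within genes the Pearson correlation was 0.875 in RPL4 (24 pairs), 0.843 in RPS2 (11 pairs), 0.689 in RPS6 (14 pairs), 0.579 in RPL8 (9 pairs) and 0.295 in RPS3 (22 pairs), whereas in RPLP0 it was -0.475 (12 pairs).

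**Figure D4:**
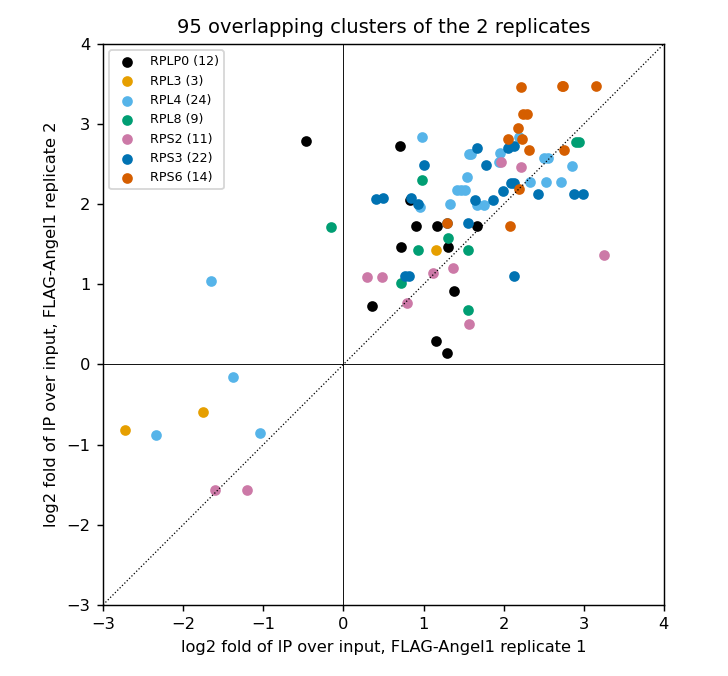
Log2 fold of IP over input in FLAG-Angel1 replicate 1 (x axis) and replicate 2 (y axis) for 95 pairs of overlapping clusters, coloured by gene with the number of pairs in parentheses. The dotted line marks equal values. Most pairs lie above the line, RPS6 lies at the upper right, and 7 pairs of RPL3, RPL4 and RPS2 lie below 0 in both.

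Part of these positions also carried clusters of the control. Of the enriched clusters in the genes, 30 of 84 in replicate 1 (35.7%, interval 26.3% to 46.4%) and 28 of 76 in replicate 2 (36.8%, interval 26.9% to 48.1%) overlapped a control cluster, beside 10.7% and 4.89% of the enriched clusters elsewhere. Of the 28 reproducible peaks of the genes, 15 lay over an enriched control cluster (53.6%, interval 35.8% to 70.5%), beside 17.2% of all 2243. These 15 comprised 9 of 11 in RPL4, 3 of 5 in RPS6, 2 of 5 in RPS3 and 1 of 3 in RPS2, with 0 of 4 in RPL8.

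At the control clusters themselves, the FLAG-Angel1 IPs were not uniformly higher. Of the 27 control clusters, 25 overlapped a cluster of replicate 1, which was higher than the control in 11 and lower in 14, and 26 overlapped a cluster of replicate 2, which was higher in 18 and lower in 8. Intervals of the difference could be computed for 20 and 19 of these, and they held 0 in 19 and 18. In the RPS3 cluster from 2835 to 2911, replicate 1 (1.00) was below the control (2.77), with an interval of the difference from -3.0 to -0.54, while replicate 2 stood at 2.49. In the RPL4 cluster from 4707 to 4765, replicate 2 (2.35) was above the control (1.24), with an interval from 0.11 to 2.09, while replicate 1 stood at 1.54. The median difference was -0.23 for replicate 1 and 0.49 for replicate 2, and the intervals reached a median of 1.49 and 1.48 to either side. The control clusters of the genes that resolved to reads held 3 to 24 IP reads. Each IP was scored against its own input, and the control list shows only positions where its few reads formed a cluster.

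**Figure D5:**
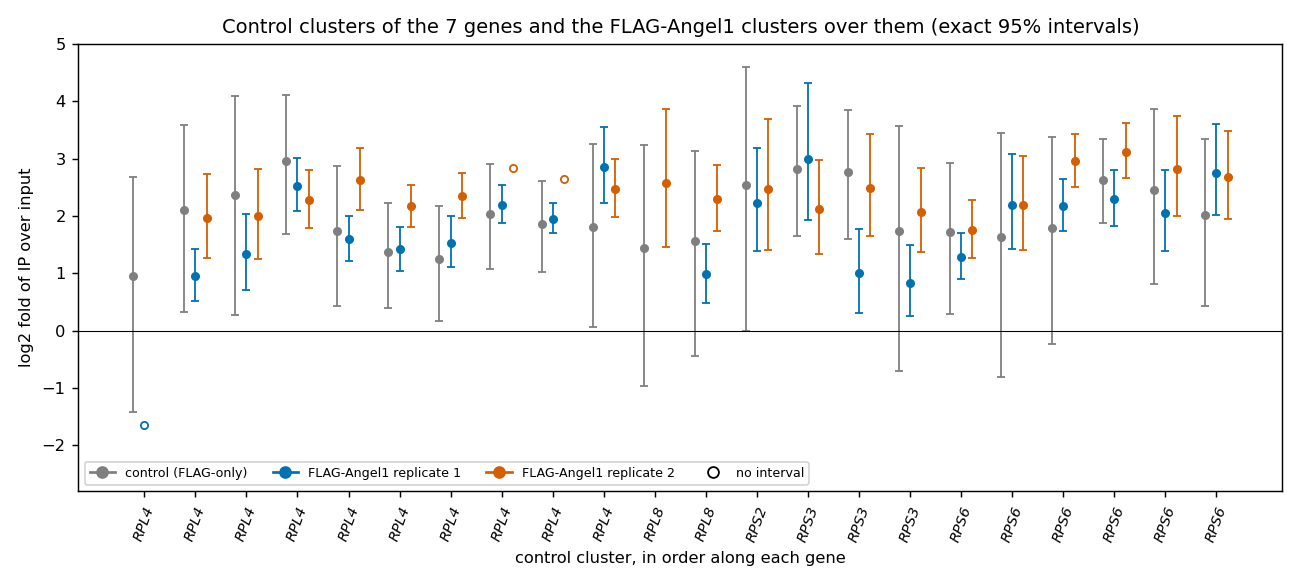
Log2 fold of IP over input (y axis) at the 22 control clusters of the 7 genes that resolved to reads (x axis, ordered along each gene), with the FLAG-Angel1 cluster of largest overlap beside each. Points are the authors' values, bars are exact 95% intervals from inferred reads, and open points have no interval. At most positions the control interval is the widest and holds the FLAG-Angel1 values.

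Where clusters fell below 0, the genes also differed. In the RefSeq annotation of GRCh38.p14, snoRNAs lie within RPL3 (SNORD83B, SNORD83A, SNORD139 and SNORD43), RPL4 (SNORD18C, SNORD18B, SNORD16 and SNORD18A), RPS2 (SNORA10 and SNORA64) and RPS3 (SNORD15A and SNORD15B). In these 4 genes, 8 of 78 clusters were below 0 in replicate 1, 13 of 57 in replicate 2 and 4 of 19 in the control. Over all clusters, 31.2%, 2.59% and 2.75% were below 0, so that the genes lay under that share in replicate 1 and over it in replicate 2. In the genes without a listed snoRNA, RPLP0, RPL8 and RPS6, the counts were 3 of 42, 0 of 37 and 0 of 8. The shares of the genes with and without a snoRNA were thus close in replicate 1. Of the 6 stretches below 0 in both replicates, 3 lay in RPL4, 2 in RPL3 and 1 in RPS2. RPS3, which also holds snoRNAs, had 0 such stretches and 1 cluster below 0, in replicate 2. The clusters were not placed on the snoRNAs, since the builds differ. RefSeq also lists 55 pseudogenes named after RPS2, 26 after RPS6, 13 after RPL3, 12 after RPLP0, 7 after RPL4, 7 after RPS3 and 5 after RPL8. How reads that match a gene and its copies were assigned is not given in the sources used here, so that values in these genes, and in RPS2 above all, are uncertain to that extent. On the strand opposite to the genes, no IP had a cluster in any of the 7 spans.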

How the data were processed

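Clusters of reads from the 3 IPs of a 6-library eCLIP experiment were analysed. The authors' eCLIP pipeline had mapped the reads to GRCh37, called clusters in each IP on its own and normalized each cluster to the matched input. The submitters' processing notes name cutadapt, STAR, SAMtools and UMI-tools, with versions and mapping settings not given in the sources used here. In the deposited lists, the log2 column gives IP over input per cluster, and the deposited −log10 P is capped at 400. Clusters do not overlap within a library but often abut, so that 1 peak can be several clusters, and reads of abutting clusters were not summed.

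The members and gene lists were chosen with earlier results of these data known. All 7 genes were described. Clusters were described singly where they formed, per gene, up to 2 pairs enriched in both replicates with the largest lower log2 fold, or had the largest −log10 P of a library. Other positions named were chosen after their values were seen.

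Reads were inferred by taking the most frequent log2 fold as 3 IP reads over 1 input read, recovering the whole-number ratio of each cluster and choosing its multiple from P (Fisher's exact test, or a chi-square test where counts reached 5). Of clusters with a P below 1, 99.0% to 99.7% resolved per library. Intervals of a difference used the inferred reads of both clusters. In simulated data with replicate 1 and control library sizes, 1475 of 1475 and 1933 of 1936 clusters were resolved, with 0 wrong. The simulated P came from the same formulas and the true library sizes were supplied, so that only the inversion was checked. The assumption of 3 reads over 1, the inferred library sizes and the authors' own test were not checked by it, and replicate 2 was not simulated. Python 3.11.15, numpy 2.4.6, scipy 1.17.1, pandas 2.3.3 and matplotlib 3.10.9 were used. Exon classes, other ribosomal protein genes and protein sequences were not analysed here.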

Additional observations from a re-analysis of the deposited data

Results flagged for a closer look

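At 2 stretches of the genes, both FLAG-Angel1 replicates lay on one side of 0 and the control on the other, and the differences were not tested. In RPL3 from nucleotide 6476 to 6587, the control stood at a log2 fold of 0.037 and the replicates at -2.73 and -0.82. This control value was hardly above 0, with a −log10 P of 0.031 and no interval. In RPS2 from nucleotide 233 to 333, the control stood at -0.71, also without an interval, and replicates 1 and 2 at 0.79 and 0.76, both enriched.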

How the results depend on the processing

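Of the 98 values recomputed for the main results under other settings, 67 moved little and 31 moved further. Moved little meant within a factor of 1.5 for counts and within the Wilson interval of the main value for shares. For correlations it meant within 0.1, and for median differences within 0.45, their SD between the replicates. Counts and shares have no sign to turn, and the median differences and correlations kept theirs. At the threshold of 0.001, the share enriched was 22.2% in the control (6 clusters) and, for the replicates, 51.7% and 66.0%. At a log2 fold of at least 1, the share of replicate 1 was 60.8%. At a log2 fold of at least 3, the counts were 2, 6 and 0 and the shares 1.67%, 6.38% and 0%. With abutting clusters joined, replicate 1 had 41 enriched clusters and a share of 60.3%. Shares at a log2 fold from 1 to 2 (100% in replicate 2) and with at least 10 input reads (91.8% and 96.5%) moved too. The median log2 fold of the genes minus that of other clusters was -3.53 in the control and, for the replicates, 0.98 and 0.34. With at least 10 input reads and a log2 fold above 0, it was 0.35 in replicate 1 and -0.14 in the control. For the control it was -2.21 weighted by width and -2.59 for clusters at least 20 nt wide. For replicate 2 these settings gave 0.13 and 0.19, counted as little moved because the tolerance of 0.45 exceeded the main value of 0.34. Reproducible peaks numbered 1 at a log2 fold of at least 3 and 13 without those over an enriched control cluster. Either replicate alone gave 62 clusters past 0.001. The Pearson correlation was 0.546 over pairs enriched in both. With each span in 3 equal parts, the first and last held 28.6% and 39.3% of enriched clusters in replicate 1 and 36.8% and 34.2% in replicate 2, while windows of 500 nt at the ends held 8.33%, 11.9%, 14.5% and 10.5%. With a reciprocal overlap of 50%, 13.1% and 18.4% of enriched clusters lay over a control cluster. The causes of these shifts were not tested. Stricter thresholds and folds kept the same listed clusters as the base of the shares, and in most cases called fewer of them enriched. Joining, the fold band and the minimum of input reads left fewer clusters in that base. Without RPL4, an alternative chosen after seeing the data, the share enriched was 47.1% in the control and, for the replicates, 66.0% and 79.2%. No paired analysis was possible because the control has 1 library and no test was made. The small control IP and the small input of replicate 1 limit what could be called.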

Other observations

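Clusters of the 3 IPs that overlapped were chained into 91 stretches over the 7 genes. Both replicates had a cluster in 56 of these, and in 38 both were enriched. The control had a cluster in 23, none of them without a FLAG-Angel1 cluster, and 21 were shared by all 3 IPs, of which 14 were enriched in all 3. Of the 38 enriched in both replicates, 21 had no control cluster, comprising 6 in RPS3, 4 in RPL8, 4 in RPS2, 3 in RPL4, 2 in RPS6 and 2 in RPLP0. No share of such stretches over all genes is given here. Most enriched clusters elsewhere also had no control cluster, since 10.7% in replicate 1 and 4.89% in replicate 2 overlapped one. Enriched clusters were spread over 3 equal parts of the gene spans, with 24, 27 and 33 in replicate 1 and 28, 22 and 26 in replicate 2, from the 5′ to the 3′ end. This spread was that of the pooled genes, and several genes departed from it. In RPL4 the first part held 0 and 1 (replicates 1 and 2), the middle 10 and 6 and the last 12 and 12. In RPS3 the same parts held 9 and 8, 9 and 6, and 2 and 1. In RPL8 they held 4 and 7, 0 and 2, and 7 and 4, and in RPS2 4 and 5, 1 and 0, and 5 and 3.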
